A study of Camellia sinensis and Camellia sinensis var. assamica with 18 samples.

Results

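Glutathione S-transferases (GSTs) were taken from the expression table as the loci whose product description names a glutathione S-transferase or a glutathione transferase. Of 84 such loci, 44 reached 1 FPKM (fragments per kilobase of transcript and per set number of mapped reads, a level scaled for transcript length and library depth) in at least 3 of the 18 libraries, and these 44 members stand beside 29019 loci of 41021 that passed the same minimum. Leaf RNA was sequenced from tissue culture seedlings of a cold-tolerant tea cultivar, Shuchazao (SCZ), and a cold-sensitive cultivar of the assamica type, Yinghong 9 (YH9). The non-acclimation stage (NA) was day 0 in a chamber kept at 25 °C in daytime and 20 °C at night. The cold-acclimation stage (CA) was day 14, after 7 days at 10 °C and 4 °C and 7 days at 4 °C and 0 °C, and the de-acclimation stage (DA) was day 21, after 7 days back at 25 °C and 20 °C. Each of the 6 groups had 3 replicates. The samples hold no seedlings kept warm for 14 or 21 days, so temperature and elapsed time cannot be told apart. In bulk leaf RNA, fewer cells that make a transcript and less of it per cell cannot be told apart either.

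GSTs join the thiol of glutathione, a small tripeptide, to electrophilic compounds, and some also reduce organic peroxides, so that they are known in leaves for detoxification and for the response to oxidative stress. Plants carry several classes. Tau and phi enzymes are the plant classes best known for conjugating herbicides and other foreign compounds, theta enzymes are known for peroxidase activity, zeta enzymes act in tyrosine breakdown, lambda enzymes and dehydroascorbate reductases (DHAR) work by thiol transfer rather than conjugation, and microsomal GSTs are unrelated membrane proteins. Conjugates are carried into the vacuole by ABC transporters of the C family.

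The primers that the study designed for RT-qPCR are the sequences that mark the members with the largest rises in SCZ in the cold, CSS027109 and CSS020031. Each is 20 bases long, is written 5′ to 3′ without capitals because no part of it is singled out, and comes from the study's primer list.
CSS027109 forward: atactctctccaacctcctc
CSS027109 reverse: tgttgctcaagtcctctttt
CSS020031 forward: gaagagaaagaggaaggcaa
CSS020031 reverse: ggcacaatacctctagactg
Their GC content was 50.0% and 40.0% for CSS027109 and 45.0% and 50.0% for CSS020031. CSS027109 is described as a putative GST of castor bean (Ricinus communis) and CSS020031 as a tea GST, and neither description names a class. The table places 42 of the 44 members only by the identifiers of the submitters' transcript assembly. The exceptions were CSS013175, a theta GST on Scaffold920 from 435238 to 435918 (minus strand), and CSS047836, a GST without a class on Scaffold1563 from 588908 to 589522 (plus strand), in the tea reference assembly used by the authors. Of the members, 6 merge more than 1 gene model, written with a slash, and reads shared by near-identical copies could not be told apart. Of the GO terms, 38 members had protein binding alone and 6 had none.

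The total estimated count per library ranged from 47291392 to 78305612. The leaf label was borne out by chlorophyll a-b binding proteins and the small subunit of Rubisco, whose 22 loci summed to between 20590 and 29960 FPKM at NA, whereas 4 Casparian strip loci, known from the root endodermis, summed to between 0 and 7.27 FPKM over all libraries. At CA the leaf list summed to between 1636 and 6950 FPKM and at DA to between 4940 and 9160 FPKM, and its part in the results was not tested. The xylem and secondary wall list of 15 loci also moved with the stages, with sums of 25.6 FPKM or more in SCZ_NA, 1.89 to 15.9 FPKM in SCZ_CA and 16.3 to 28.5 FPKM in SCZ_DA, and of 27.9 to 251.9, 10.4 to 61.4 and 35.2 to 81.4 FPKM in YH9, and its part in the member changes was not tested. The phloem list of 13 loci summed to between 24.4 and 91.1 FPKM over all libraries, with overlapping NA and CA groups in each cultivar. It was higher in SCZ than in YH9 without overlap at CA (41.9 to 91.1 against 24.4 to 36.7 FPKM). The same held at DA (58.98 to 81.35 against 47.6 to 55.7 FPKM), and YH9_DA lay above YH9_NA (45.9 FPKM at most). The part of this list in the member differences was not tested. Replicate 2 of SCZ_CA stood apart. It held the lowest leaf sum, 1636 FPKM against 5596 and 6950 FPKM in replicates 1 and 3, and among 39 members that reached 1 FPKM in SCZ_CA it lay more than 2-fold above both other replicates at 11 and more than 2-fold below both at 8. In the other 17 libraries that number was between 1 and 11 in either direction together. For 7 of 44 members its level fell inside the YH9_CA range and outside that of the other SCZ_CA replicates. This count is given for the members and this library alone. CSS009735, a locus near absent from SCZ, was at 0.0661 FPKM in it. Why this library stood apart was not tested. Results for members that rest on this library are given with and without it.

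Levels of the members spanned a wide range, and the heat map orders them by class. The 5 with the highest mean over all libraries were CSS052315 (265.8 FPKM, a lambda GST described as L3-like), CSS047834 (154.0 FPKM, a GST without a class), the microsomal CSS014728 (150.8 FPKM), CSS018490 (130.1 FPKM, without a class) and CSS020031 (127.0 FPKM). At NA the 6 most abundant members made up 68.0% of the summed FPKM of all 44 in SCZ and 68.5% in YH9. Between 5 and 11 members averaged under 1 FPKM in any given group. The summed FPKM of the members was 1339, 1390 and 1314 in SCZ_NA, 1658, 2236 and 1625 in SCZ_CA and 1484, 1125 and 1233 in SCZ_DA. In YH9 it was 1322, 1627 and 1332 at NA, 1264, 1923 and 1465 at CA and 1962, 1401 and 1548 at DA. The SCZ_CA sums lay above all SCZ_NA and SCZ_DA sums, and in YH9 the sums of the 3 stages overlapped. Single loci held much of the SCZ_CA sums. CSS020031 was at 694.3 and 613.4 FPKM in replicates 1 and 3, and CSS027109 at 703.1 FPKM in replicate 2. The higher sums thus do not describe most members, since 27 of 43 members with counts had negative log2 fold changes in SCZ_CA vs. SCZ_NA. By description there were 8 lambda, 4 theta, 3 tau and 2 phi members, 1 each of zeta, DHAR and microsomal type, and 24 without a class. The 40 matching loci below the minimum held 19 theta, 10 tau and 11 unclassed loci, 17 of them described as T3-like, and each had at least 1 library above 0. The members nearest to the minimum were CSS009732, whose 3rd highest library had 1.15 FPKM, and CSS013175, with 1.47 FPKM, and the nearest loci outside it were CSS042757, with 0.998 FPKM, and CSS036263, with 0.862 FPKM.

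**Figure D1:**
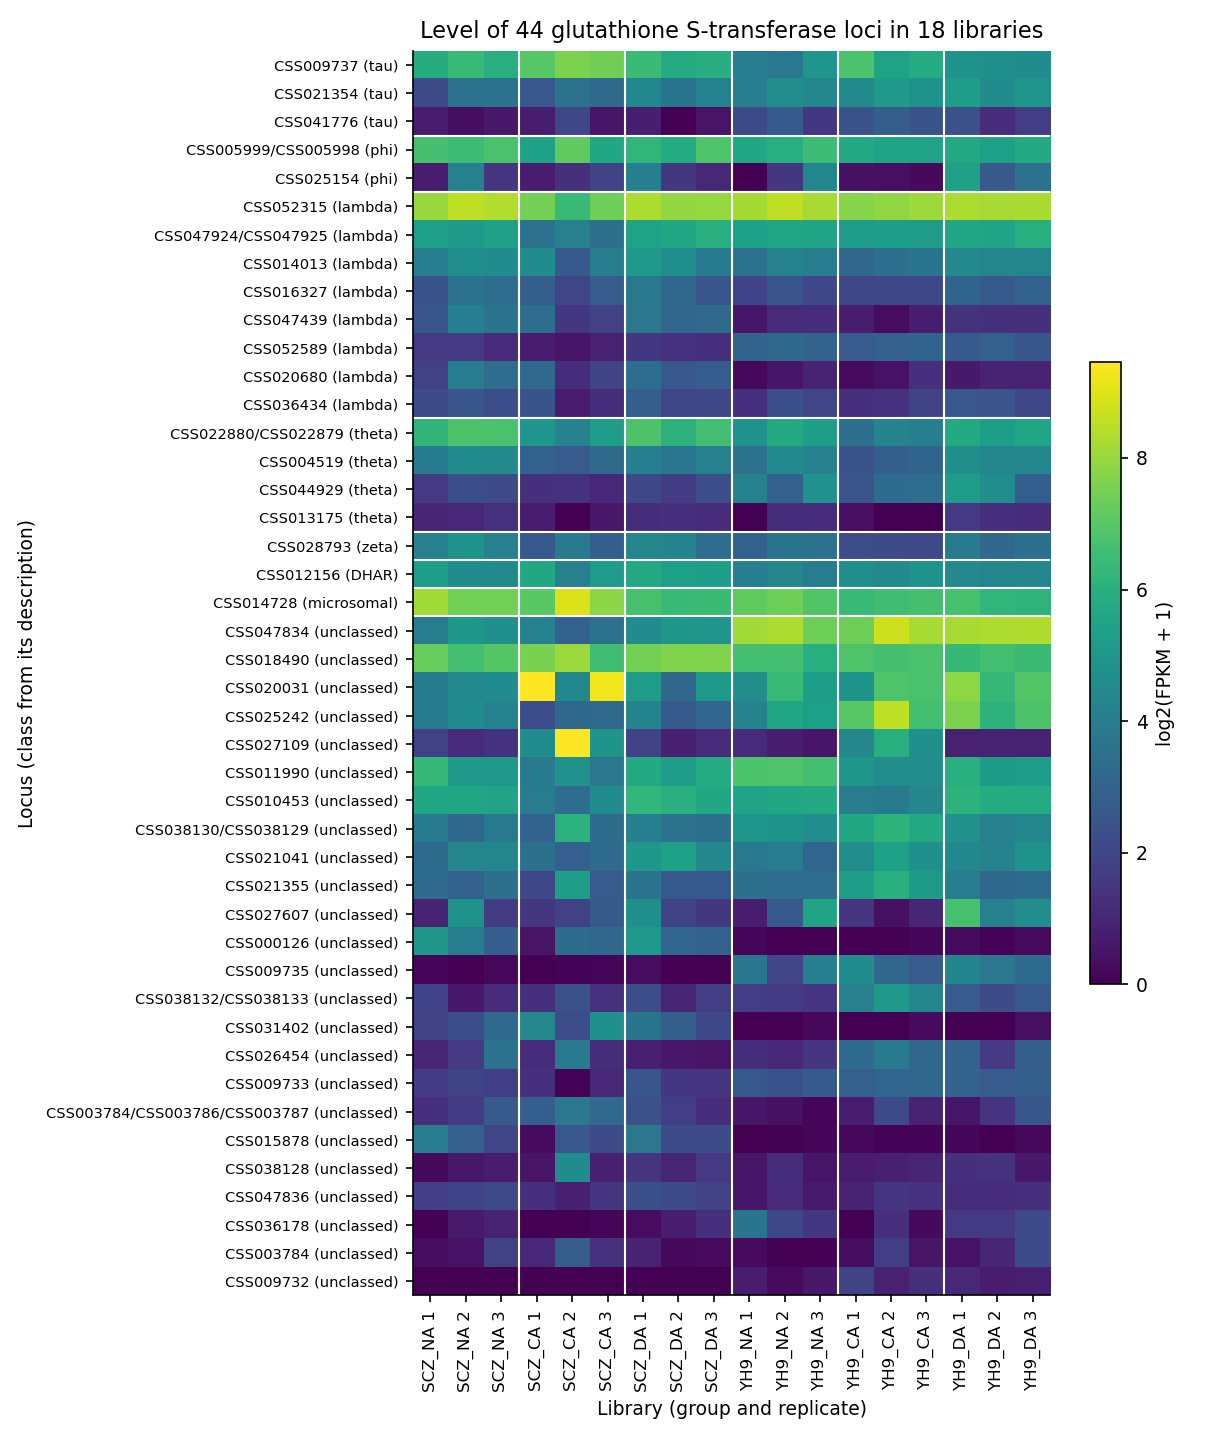
Levels of the 44 members (rows, ordered by class and then by mean level) in the 18 libraries (columns), as log2(FPKM + 1). The lambda locus CSS052315 was high in every library (81.3 to 378.0 FPKM), CSS020031 was brightest in SCZ_CA replicates 1 and 3 and CSS027109 in SCZ_CA replicate 2, and CSS009732 was at 0 in all 9 SCZ libraries.

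Cold acclimation changed members in both directions in both cultivars. Changes were tested on the estimated counts with edgeR's quasi-likelihood test over all 29019 loci. A member is called up- or down-regulated where its change was 2-fold or more and its p, adjusted by the method of Benjamini and Hochberg, lay below 0.05. In SCZ_CA vs. SCZ_NA, 4 members were up-regulated and 8 down-regulated, which is 27.3% of the members, and 34.1% of all loci tested were called (15.0% up and 19.1% down). In YH9_CA vs. YH9_NA, 8 members were up-regulated and 5 down-regulated, which is 29.5% of the members, where 25.8% of all loci were called (11.7% up and 14.2% down). Both shares lay near those of all loci. The median log2 fold change of the members was −0.78 in SCZ (43 members with counts, 27 negative), with −0.06 over all loci, and 0.19 in YH9, with −0.01 over all loci. Up-regulated in both cultivars were 2 members, and down-regulated in both were 5. Another 2 passed upwards and 3 downwards in SCZ but not in YH9, 6 passed upwards in YH9 but not in SCZ, and 26 were called in neither, while the test of the difference between the responses passed at 2 members, CSS025242 and CSS021041. No member was called in opposite directions. The log2 fold changes of 34 of the 43 members with counts in both cultivars had the same sign, which is 79.1%, and 74.2% of all loci did. Without SCZ_CA replicate 2, SCZ_CA vs. SCZ_NA had 3 up-regulated and 7 down-regulated members, the SCZ median was −0.65 with 33 of 43 negative, and 30 of 43 members had the same sign. YH9_CA vs. YH9_NA again had 8 and 5. For the fit without that library no shares of all loci are given, so its counts describe the members alone.

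**Figure D2:**
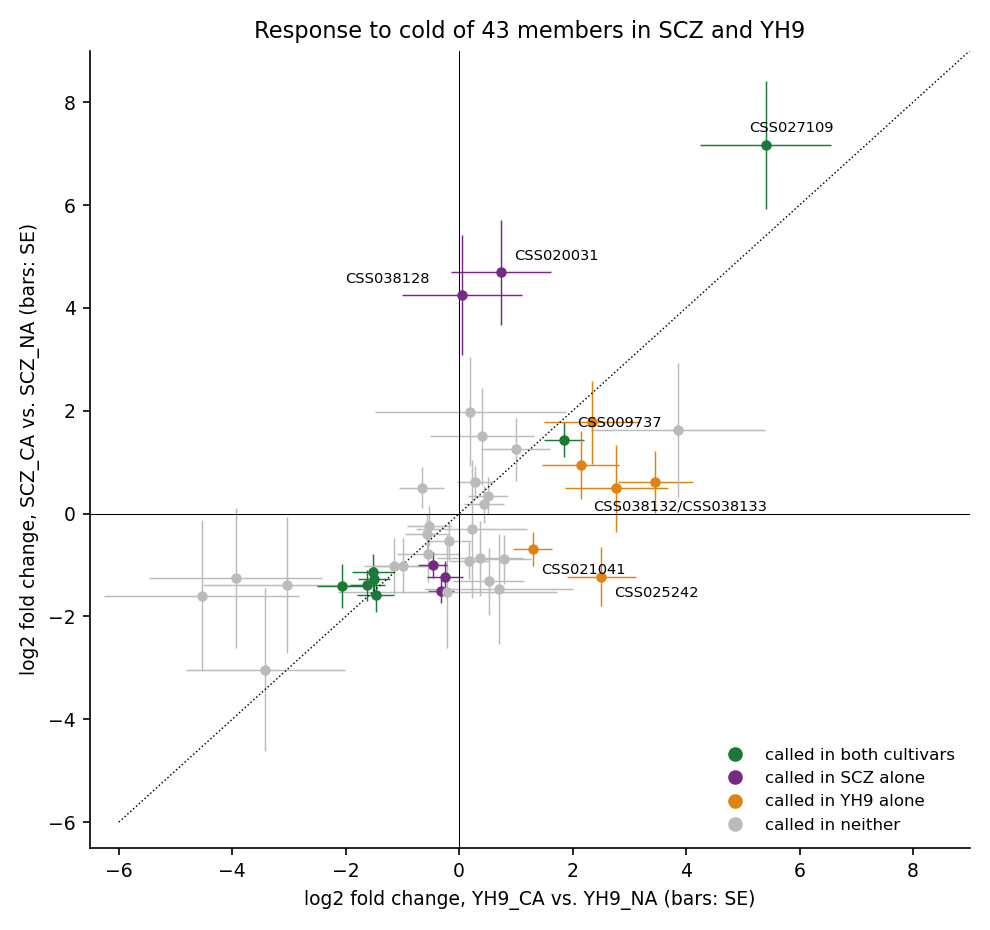
Log2 fold changes from NA to CA of 43 members in SCZ (vertical axis) and YH9 (horizontal axis), with SE bars and a dotted line of equal change. CSS009732 is left out because it had no counts in SCZ. CSS027109 was highest on both axes (7.17 and 5.40), while CSS020031 and CSS038128 were called on the SCZ axis (4.69 and 4.25) and not on the YH9 axis (0.74 and 0.04), and CSS025242 and CSS021041 lay to the right of 0 and below it.

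CSS027109 showed the largest rise of any member in each cultivar with all libraries, and without SCZ_CA replicate 2 the largest rise in SCZ was that of CSS020031. The level of CSS027109 was 2.53, 1.19 and 1.60 FPKM in SCZ_NA, 23.3, 703.1 and 28.6 FPKM in SCZ_CA and 2.81, 0.775 and 1.25 FPKM in SCZ_DA. In YH9 it was 1.26, 0.670 and 0.497 FPKM at NA, 19.8, 61.2 and 25.6 FPKM at CA and 0.807, 0.852 and 0.941 FPKM at DA. In both cultivars every CA library thus lay above every NA and DA library, and replicate 2 was the highest of each CA group. The log2 fold change was 7.17 ± 1.24 (SE, adjusted p = 0.000364) in SCZ_CA vs. SCZ_NA and 5.40 ± 1.15 (adjusted p = 0.00241) in YH9_CA vs. YH9_NA. Without SCZ_CA replicate 2 the rise in SCZ was 3.95 (adjusted p = 0.000338), and without YH9_CA replicate 2 the rise in YH9 was 4.74 (adjusted p = 0.00861). The difference SCZ_CA vs. YH9_CA, 3.00 ± 1.02 (adjusted p = 0.034), became −0.18 (adjusted p = 0.849) without SCZ_CA replicate 2, so the higher level in SCZ rested on that library.

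CSS020031 was the most abundant member of SCZ_CA, with 24.1% of the summed FPKM. It was at 14.3, 20.7 and 23.1 FPKM in SCZ_NA, at 694.3, 20.1 and 613.4 FPKM in SCZ_CA and at 36.4, 7.70 and 33.9 FPKM in SCZ_DA. Replicates 1 and 3 of SCZ_CA were far above all other libraries, and replicate 2 lay within the SCZ_NA range. The log2 fold change of SCZ_CA vs. SCZ_NA was 4.69 ± 1.02 (adjusted p = 0.00201), and 5.25 (adjusted p = 0.00012) without replicate 2. In YH9 it was at 24.3, 83.2 and 39.0 FPKM at NA, 29.0, 115.6 and 104.9 FPKM at CA and 228.1, 77.2 and 120.7 FPKM at DA, with overlapping groups. The change in YH9_CA vs. YH9_NA was 0.74 ± 0.88 (adjusted p = 0.558). The difference between the responses, 3.95 ± 1.28, did not pass the test (adjusted p = 0.111) with all libraries and passed it at 4.53 (adjusted p = 0.0187) without SCZ_CA replicate 2. CSS020031 was higher in SCZ_CA than in YH9_CA by 2.65 ± 0.93 (adjusted p = 0.0396), a call that ended when SCZ_CA replicate 1 or 3 or any YH9_CA replicate was left out.

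CSS009737, described as the tau GST U17, rose in both cultivars. In SCZ it was at 57.2, 85.2 and 59.5 FPKM at NA, 128.7, 191.5 and 169.7 FPKM at CA and 86.6, 55.8 and 59.1 FPKM at DA. Its YH9 levels were 15.4, 12.7 and 29.6 FPKM at NA, 107.9, 44.2 and 57.5 FPKM at CA and 27.3, 25.9 and 23.4 FPKM at DA. The CA libraries lay above the NA and DA libraries in each cultivar, and the SCZ level was the higher at every stage. The log2 fold changes were 1.44 ± 0.34 (adjusted p = 0.00375) in SCZ and 1.85 ± 0.35 (adjusted p = 0.00101) in YH9, and both calls held with each of the 18 libraries left out in turn. The fourth member called up in SCZ, CSS038128, rested on 1 library. It was at 0.429, 23.4 and 0.778 FPKM in SCZ_CA and at 0.181, 0.533 and 0.705 FPKM in SCZ_NA, and its log2 fold change of 4.25 became 0.66 (adjusted p = 0.487) without replicate 2.

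**Figure D3:**
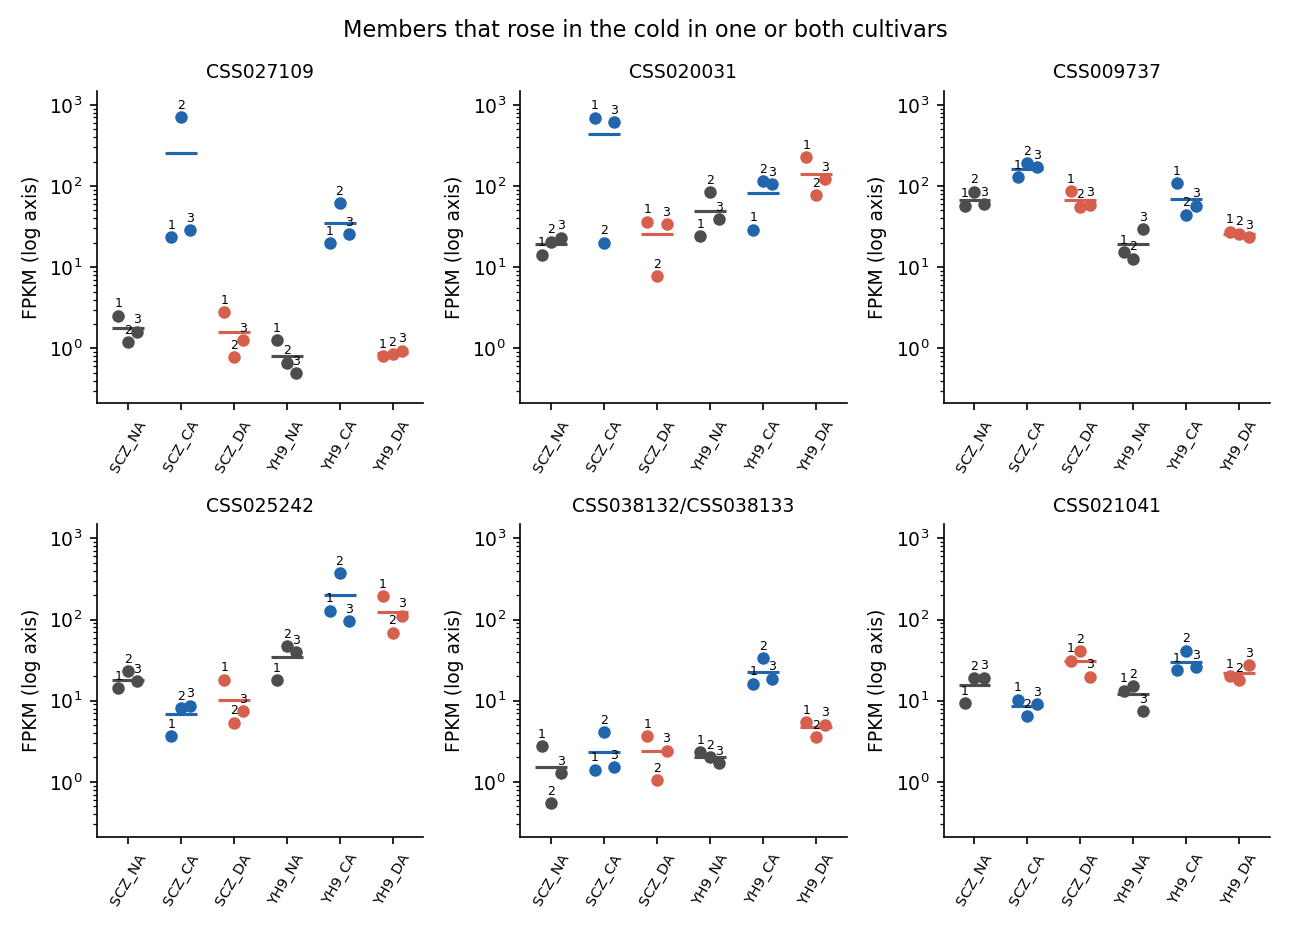
FPKM on a log axis of 6 members that rose in the cold, in the 6 groups, with points numbered by replicate and a bar at each group's mean. CSS027109 and CSS009737 rose in both cultivars, CSS020031 in SCZ through replicates 1 and 3 (694.3 and 613.4 FPKM), and CSS025242, CSS038132/CSS038133 and CSS021041 in YH9.

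The 6 members up-regulated in YH9 and not called in SCZ are all described without a class. CSS025242 was at 17.9, 46.5 and 40.0 FPKM in YH9_NA, 128.5, 372.3 and 95.3 FPKM in YH9_CA and 193.6, 68.9 and 111.9 FPKM in YH9_DA. It was at 14.3, 23.0 and 17.4 FPKM in SCZ_NA, 3.66, 8.09 and 8.70 FPKM in SCZ_CA and 18.2, 5.36 and 7.49 FPKM in SCZ_DA. Every CA library lay above the NA libraries in YH9 and below them in SCZ. It rose by 2.51 ± 0.60 (adjusted p = 0.00517) in YH9, or by 1.67 (adjusted p = 0.037) without YH9_CA replicate 2, and its change in SCZ was −1.22 ± 0.58 (adjusted p = 0.102).

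CSS021041, described as a tea GST, had the same opposed pattern at lower levels. It was at 13.3, 15.0 and 7.48 FPKM in YH9_NA and 23.9, 41.2 and 25.9 FPKM in YH9_CA, and at 9.28, 18.98 and 19.2 FPKM in SCZ_NA and 10.4, 6.41 and 8.99 FPKM in SCZ_CA. The groups did not overlap in YH9 and overlapped in SCZ. The log2 fold changes were 1.296 ± 0.34 (adjusted p = 0.00908) in YH9, whose call ended when YH9_CA replicate 2 was left out (1.003), and −0.69 ± 0.34 (adjusted p = 0.114) in SCZ. In SCZ_DA it was at 31.1, 41.1 and 19.8 FPKM, and SCZ_DA vs. SCZ_CA was 1.63 ± 0.34 (adjusted p = 0.00197). CSS025242 and CSS021041 were the 2 members whose response differed between the cultivars in the test of the difference itself, 4.55% of the members where 2.57% of all loci passed (1.29% in each direction). The response in SCZ minus that in YH9 was −3.73 ± 0.83 (adjusted p = 0.0296) for CSS025242 and −1.99 ± 0.48 (adjusted p = 0.041) for CSS021041. The first call ended in 6 of the 18 leave-one-out fits (SCZ_NA replicate 2 or 3, any YH9_NA replicate, or YH9_CA replicate 2, without which it was −2.90) and the second in 13.

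CSS038132/CSS038133, a merged locus with a GST and chloride channel domain description, rose from 2.31, 2.01 and 1.69 FPKM in YH9_NA to 16.2, 33.3 and 18.7 FPKM in YH9_CA and was at 5.49, 3.54 and 5.06 FPKM in YH9_DA. In SCZ no library exceeded 4.13 FPKM. The log2 fold change was 3.46 ± 0.66 (adjusted p = 0.0011) in YH9 and 0.62 ± 0.61 (adjusted p = 0.434) in SCZ, and the difference of −2.84 ± 0.87 did not pass (adjusted p = 0.0931), and passed without SCZ_CA replicate 2 at −3.48 (adjusted p = 0.0496). CSS026454 went from 1.36, 1.13 and 1.81 to 8.87, 13.4 and 7.75 FPKM in YH9 (log2 fold change 2.77 ± 0.91, adjusted p = 0.0284), and CSS021355 from 10.3, 9.31 and 9.54 to 37.9, 59.6 and 34.4 FPKM (2.14 ± 0.68, adjusted p = 0.0246). Their YH9 groups did not overlap, and each call ended when YH9_CA replicate 2 or any YH9_NA replicate was left out. In SCZ_CA both were high in replicate 2 alone, at 14.1 FPKM against 1.29 and 1.34 for CSS026454 and at 38.0 FPKM against 3.14 and 5.54 for CSS021355. Without that library both differed in response between cultivars, by −4.27 (adjusted p = 0.0368) and −2.94 (adjusted p = 0.0212). The sixth, CSS003784/CSS003786/CSS003787, was at 0.477, 0.337 and 0.110 FPKM in YH9_NA and 0.642, 3.31 and 0.940 FPKM in YH9_CA. Its log2 fold change of 2.34 ± 0.84 (adjusted p = 0.0434) was 1.296 (adjusted p = 0.268) without YH9_CA replicate 2 and lost its call in 5 further leave-one-out fits, those without SCZ_CA replicate 3, SCZ_DA replicate 2, YH9_DA replicate 2 or YH9_NA replicate 2 or 3.

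The members that fell in both cultivars included theta and zeta loci. CSS022880/CSS022879, described as theta GST T1, was at 72.5, 111.1 and 107.1 FPKM in SCZ_NA, 30.4, 17.1 and 37.4 FPKM in SCZ_CA and 112.6, 66.3 and 96.2 FPKM in SCZ_DA. The YH9 levels were 27.5, 52.9 and 38.4 FPKM at NA, 10.2, 17.7 and 15.7 FPKM at CA and 54.2, 37.7 and 47.6 FPKM at DA. The CA libraries were the lowest of each cultivar and did not overlap with the others. It fell by 1.59 ± 0.33 (adjusted p = 0.00142) in SCZ and by 1.47 ± 0.33 (adjusted p = 0.00325) in YH9 on the log2 scale. Another theta T1 locus, CSS004519, went from 13.6, 23.0 and 21.8 to 6.71, 5.64 and 8.61 FPKM in SCZ and from 10.6, 21.9 and 17.5 to 4.35, 6.28 and 7.32 FPKM in YH9. It fell by 1.28 ± 0.28 (adjusted p = 0.00209) and by 1.496 ± 0.28 (adjusted p = 0.00103).

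CSS028793, described as a zeta GST, a class known as maleylacetoacetate isomerase, was at 16.4, 27.3 and 16.6 FPKM in SCZ_NA and 5.05, 13.5 and 6.01 FPKM in SCZ_CA. The levels in YH9 were 6.67, 11.9 and 10.8 FPKM at NA and 3.71, 3.43 and 3.21 FPKM at CA. The groups did not overlap in either cultivar. It fell by 1.14 ± 0.36 (adjusted p = 0.0195) in SCZ, a call that ended without SCZ_CA replicate 1 or 3 or SCZ_NA replicate 2, and by 1.52 ± 0.37 (adjusted p = 0.00556) in YH9. Among loci without a class, CSS010453 fell from 49.2, 45.7 and 44.9 to 14.9, 9.50 and 23.4 FPKM in SCZ (log2 fold change −1.40 ± 0.30, adjusted p = 0.00191) and from 42.8, 50.2 and 52.3 to 15.0, 13.8 and 19.7 FPKM in YH9 (−1.62 ± 0.30, adjusted p = 0.000987). CSS011990, described as a probable GST of grape, fell from 77.9, 33.1 and 32.1 to 13.9, 26.98 and 12.5 FPKM in SCZ (−1.41 ± 0.42, adjusted p = 0.0149). That call ended without SCZ_NA replicate 1 (−0.59, adjusted p = 0.16) and without SCZ_CA replicate 1 or 3. In YH9 it went from 109.0, 116.1 and 97.5 to 31.1, 23.6 and 24.1 FPKM (−2.07 ± 0.43, adjusted p = 0.00206).

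**Figure D4:**
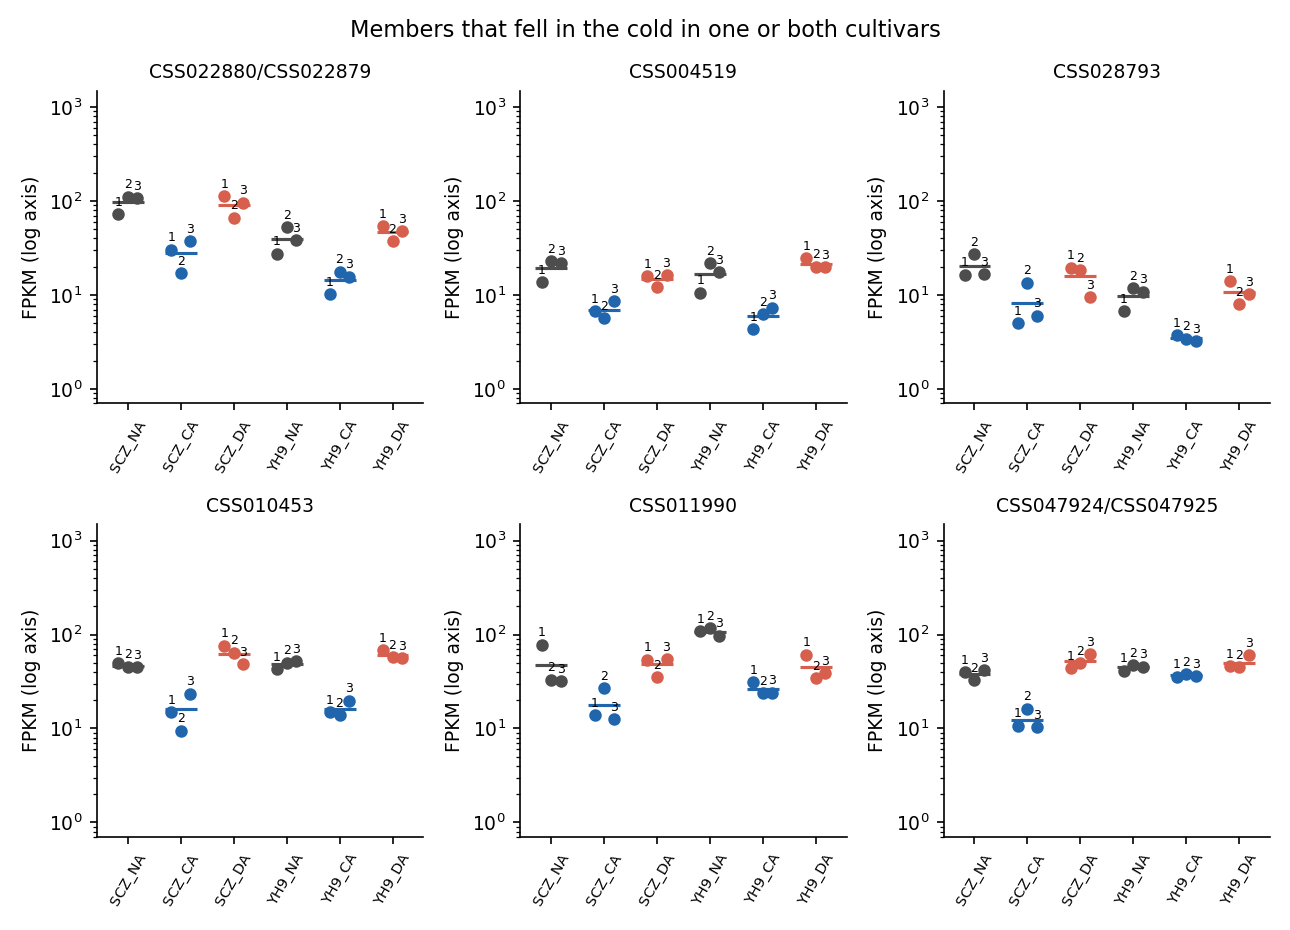
FPKM on a log axis of 6 members that fell in the cold, in the 6 groups, with points numbered by replicate and a bar at each group's mean. The first 5 were lower at CA in both cultivars, and the lambda locus CSS047924/CSS047925 was lower at CA in SCZ (10.7, 16.3 and 10.3 FPKM) and, by less and without a call, in YH9 (35.7, 38.0 and 36.3 FPKM).

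Of the 8 lambda members, 3 fell in SCZ and none was called in YH9. All 8 had negative log2 fold changes in SCZ_CA vs. SCZ_NA (median −0.94), and without SCZ_CA replicate 2 the values ran from −1.73 to −0.01 (median −0.56) with 2 called. CSS047924/CSS047925, described as L3, was at 39.6, 32.7 and 41.6 FPKM in SCZ_NA, 10.7, 16.3 and 10.3 FPKM in SCZ_CA and 43.98, 49.9 and 61.3 FPKM in SCZ_DA. YH9 levels were 41.2, 47.4 and 45.5 FPKM at NA and 35.7, 38.0 and 36.3 FPKM at CA, so that the CA libraries lay below the NA libraries in both cultivars. It fell by 1.501 ± 0.23 (adjusted p = 0.000141) in SCZ, and the YH9 change was −0.32 ± 0.23 (adjusted p = 0.302). The difference between the cultivars was −1.18 ± 0.32 (adjusted p = 0.0618), and −1.40 (adjusted p = 0.0296) without SCZ_CA replicate 2. CSS052315, the most abundant member, was at 257.8, 370.3 and 329.0 FPKM in SCZ_NA and 179.4, 81.3 and 164.7 FPKM in SCZ_CA, and at 289.8, 378.0 and 297.8 FPKM in YH9_NA and 212.4, 234.2 and 268.7 FPKM in YH9_CA. Its fall of 1.01 ± 0.26 (adjusted p = 0.00564) in SCZ lay at the 2-fold limit and was under it without SCZ_CA replicate 2 (−0.73) and without SCZ_NA replicate 1 or 2. CSS052589, also described as L3, fell by 1.24 ± 0.33 (adjusted p = 0.00712) from a mean of 1.71 to 0.652 FPKM, and not beyond the threshold without SCZ_NA replicate 1 (−0.95). In YH9, 7 of the 8 lambda loci had negative values (median −0.39).

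Other abundant members were not called in the cold. The microsomal CSS014728 was at 285.2, 173.1 and 175.4 FPKM in SCZ_NA and 132.0, 497.3 and 226.0 FPKM in SCZ_CA, and its log2 fold change of 0.50 ± 0.40 (adjusted p = 0.329) turned to −0.12 without replicate 2. In YH9 it was at 142.8, 165.1 and 119.2 FPKM at NA and 83.8, 92.8 and 101.1 FPKM at CA (−0.66 ± 0.40, adjusted p = 0.22). CSS018490, described as a GST of Camellia japonica, was at 151.5, 97.0 and 122.5 FPKM in SCZ_NA, 188.7, 261.9 and 94.2 FPKM in SCZ_CA, 98.8, 97.7 and 61.0 FPKM in YH9_NA and 115.6, 101.5 and 107.1 FPKM in YH9_CA. Its changes were 0.61 ± 0.32 (adjusted p = 0.139) and 0.28 ± 0.32 (adjusted p = 0.535). CSS047834 was at 279.4, 313.0 and 165.3 FPKM in YH9_NA and 164.7, 422.5 and 301.1 FPKM in YH9_CA (0.18 ± 0.35, adjusted p = 0.744). In SCZ it went from 15.2, 31.3 and 25.9 to 16.9, 6.69 and 10.5 FPKM (−0.91 ± 0.36, adjusted p = 0.0503).

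After the return to warmth no member was called against the NA stage of its cultivar. SCZ_DA vs. SCZ_NA called 0 members by edgeR, where 3.03% of all loci were called (1.45% up and 1.58% down), and YH9_DA vs. YH9_NA called 0, where 0.376% were (0.0551% up and 0.320% down). At an unadjusted edgeR p under 0.05 there were 4 members in SCZ and 5 in YH9. Over all loci, 19.8% in SCZ and 9.76% in YH9 reached that limit. DESeq2 called CSS014728 and CSS026454 down in SCZ, and CSS003784/CSS003786/CSS003787 up and CSS011990 down in YH9. Of all 29019 loci, DESeq2 called 1865 in SCZ_DA vs. SCZ_NA and 435 in YH9_DA vs. YH9_NA. The smallest adjusted p were those of CSS014728 in SCZ (0.0809) and of CSS011990 in YH9 (0.224). Without SCZ_CA replicate 2, 2 members were called down in SCZ_DA vs. SCZ_NA, CSS014728 (−1.33, adjusted p = 0.0322) and CSS026454 (−2.85, adjusted p = 0.0271). CSS014728 was also called without SCZ_CA replicate 1 (−1.32, adjusted p = 0.0341), and CSS011990 was called down in YH9_DA vs. YH9_NA without SCZ_NA replicate 1 (−1.48, adjusted p = 0.043).

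SCZ_DA vs. SCZ_CA called 7 members up and 5 down, where 29.1% of all loci were called (15.6% up and 13.5% down), and YH9_DA vs. YH9_CA called 6 up and 4 down, where 23.5% were (13.1% up and 10.4% down). These comparisons share the CA libraries with CA vs. NA. Without SCZ_CA replicate 2 they called 10 members in SCZ and 13 in YH9, and shares of all loci are not given for that fit. In SCZ, CSS026454 (−3.36, then −1.34), CSS047834 (1.12, then 0.86) and CSS052589 (1.08, then 0.85) lost their calls without it. CSS028793 (0.76, then 1.29) gained a call. CSS027109 fell by 7.42 ± 1.26 (adjusted p = 0.000395) in SCZ, or by 4.21 without SCZ_CA replicate 2, and by 5.50 ± 1.16 (adjusted p = 0.00246) in YH9, or by 4.84 without YH9_CA replicate 2. CSS020031 fell by 4.27 ± 1.002 (adjusted p = 0.00395) in SCZ. CSS009737 fell by 1.48 ± 0.34 (adjusted p = 0.00383) in SCZ and by 1.61 ± 0.35 (adjusted p = 0.00289) in YH9. CSS025242, which had risen in YH9, stayed at 193.6, 68.9 and 111.9 FPKM, above every YH9_NA library, and YH9_DA vs. YH9_CA was −0.84 ± 0.57 (adjusted p = 0.286). CSS011990 was at 61.2, 34.6 and 38.5 FPKM in YH9_DA, below all YH9_NA libraries (DA vs. NA −1.46 ± 0.42, adjusted p = 0.224).

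SCZ and YH9 differed at many members before, during and after the cold. SCZ_NA vs. YH9_NA called 11 members higher and 6 lower in SCZ (38.6% of the members), where 19.2% of all loci were called (9.90% higher and 9.29% lower). SCZ_CA vs. YH9_CA called 13 and 11 (54.5%), where 27.3% of all loci were called (12.8% and 14.4%), and SCZ_DA vs. YH9_DA called 10 and 7 (38.6%), where 24.0% were (11.4% and 12.6%). Without SCZ_CA replicate 2 the numbers were 11 and 8, 12 and 15, and 10 and 9. The shares of all loci in that fit are not given, so these numbers describe the members alone. Of the 44 members, 29 were called at 1 stage or more, 7 were higher in SCZ at all 3 stages and 5 higher in YH9 at all 3, and none changed direction. These counts over stages are given for the members alone, without the share of all loci, and so describe no trait particular to GSTs. Reads of both cultivars were mapped to 1 tea reference, and a lower transcript level in a cultivar and poorer mapping of its reads where it departs from that reference cannot be told apart.

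**Figure D5:**
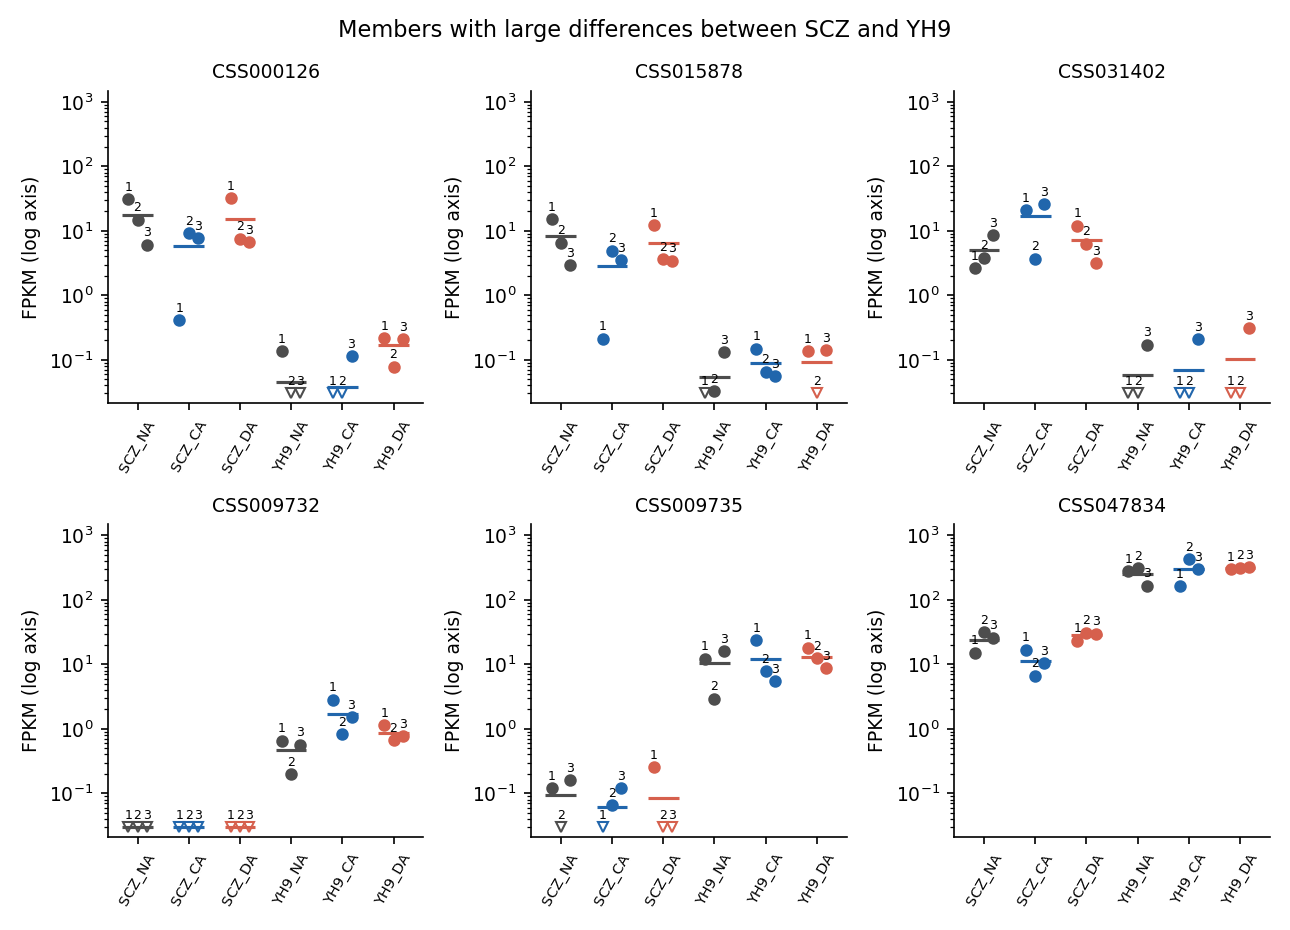
FPKM on a log axis of 6 members that differed between SCZ and YH9, with points numbered by replicate, a bar at each group's mean and open triangles for values under 0.03 FPKM, zeros included. CSS000126, CSS015878 and CSS031402 were detected in all SCZ libraries and were at or under 0.307 FPKM in YH9, CSS009732 and CSS009735 showed the reverse, and CSS047834 was present in both cultivars and higher in YH9 (165.3 FPKM or more at NA).

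Members near absent from a cultivar gave the largest differences. CSS000126, described as PARB, a name first given to an auxin-regulated tobacco GST, was at 31.1, 14.8 and 6.13 FPKM in SCZ_NA, 0.416, 9.25 and 7.76 FPKM in SCZ_CA and 32.0, 7.58 and 6.65 FPKM in SCZ_DA. In YH9 no library exceeded 0.218 FPKM. Its log2 difference was 8.71 ± 1.62 at NA (adjusted p = 0.000989), 7.40 ± 1.57 at CA (adjusted p = 0.00225) and 6.65 ± 1.42 at DA (adjusted p = 0.00243). CSS015878, with a GST and chloride channel domain description and a mean under the minimum for named members, followed CSS000126 across the libraries and was the member most like it (Pearson r of log2(FPKM + 1) = 0.996 over 18 libraries, which share cultivar and stage). It was at 15.1, 6.51 and 2.92 FPKM in SCZ_NA and at or under 0.148 FPKM in YH9. CSS031402, a tea GST, was at 2.63, 3.83 and 8.46 FPKM in SCZ_NA, 21.01, 3.70 and 25.8 FPKM in SCZ_CA and 11.95, 6.35 and 3.12 FPKM in SCZ_DA, with 0 counts in 6 of the 9 YH9 libraries and at most 6 in the others. Its log2 difference at CA was 8.02 ± 1.49 (adjusted p = 0.000861). These sizes rest on few counts. With each library left out in turn, the difference at NA was between 7.69 and 13.19 for CSS000126 (YH9_NA replicate 1 held its only counts there) and between 5.62 and 9.70 for CSS031402 (YH9_NA replicate 3), and at CA between 7.42 and 11.69 for CSS031402 (YH9_CA replicate 3). All of these calls held in all 18 fits.

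Members higher in YH9 included neighbours in the numbering of the annotation, described as GST 1 of persimmon (Diospyros kaki). CSS009732 had 0 counts in all 9 SCZ libraries and between 17 and 147 counts in the YH9 libraries. Against a floor of 3 counts per SCZ library, it was at least 10.9-fold higher in YH9 at NA, 36.8-fold at CA and 15.7-fold at DA. CSS009735 was at 12.2, 2.95 and 16.1 FPKM in YH9_NA, 23.6, 7.80 and 5.49 FPKM in YH9_CA and 18.04, 12.6 and 8.78 FPKM in YH9_DA, and at or under 0.254 FPKM in SCZ. The log2 difference was −6.64 ± 1.31 at NA (adjusted p = 0.00157) and −7.16 ± 1.35 at CA (adjusted p = 0.000929). CSS009733 was present in both cultivars, and SCZ_CA vs. YH9_CA was −2.81 ± 0.68 (adjusted p = 0.00521). CSS047834 gave the smallest adjusted p of any member at each stage. It was between 164.7 and 422.5 FPKM over the 9 YH9 libraries and between 6.69 and 31.3 FPKM over the 9 SCZ libraries, with no overlap. The log2 difference was −3.41 ± 0.39 at NA (adjusted p = 2.04e-05), −4.50 ± 0.41 at CA (adjusted p = 2.37e-06) and −3.31 ± 0.39 at DA (adjusted p = 2.13e-05).

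The remaining members named between cultivars differed less. The lambda locus CSS047439 was at 4.75, 15.8 and 11.6 FPKM in SCZ_NA and 0.491, 1.22 and 1.38 FPKM in YH9_NA (3.36 ± 0.58, adjusted p = 0.000559). The tau locus CSS009737 was higher in SCZ by 1.85 ± 0.35 at NA (adjusted p = 0.00108) and by 1.44 ± 0.34 at CA (adjusted p = 0.00486), and the theta locus CSS022880/CSS022879 by 1.31 ± 0.33 at NA (adjusted p = 0.00809). The zeta locus CSS028793 was higher by 1.07 ± 0.36 at NA (adjusted p = 0.0453), a call lost in 11 of the 18 leave-one-out fits. The theta T1 locus CSS044929 went the other way, with 2.00, 3.81 and 3.64 FPKM in SCZ_NA and 16.98, 6.56 and 26.4 FPKM in YH9_NA (−2.38 ± 0.56, adjusted p = 0.00536). The tau locus CSS021354 was at 3.64, 10.8 and 10.9 FPKM in SCZ_NA and 15.5, 24.3 and 20.0 FPKM in YH9_NA (−1.27 ± 0.37, adjusted p = 0.0195), and this call was lost without SCZ_NA replicate 1 or YH9_NA replicate 2. At CA the microsomal CSS014728 was higher in SCZ by 1.84 ± 0.41 (adjusted p = 0.00316), or by 1.25 (adjusted p = 0.0179) without SCZ_CA replicate 2. Of the members called up in YH9 and not in SCZ, these were lower in SCZ_CA than in YH9_CA, by 4.63 ± 0.66 for CSS025242 (adjusted p = 0.000121), 3.07 ± 0.65 for CSS038132/CSS038133 (adjusted p = 0.00213) and 1.61 ± 0.34 for CSS021041 (adjusted p = 0.00237).

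Members of lower level differed between the cultivars as well. The lambda locus CSS020680, the member most like CSS047439 (r of log2(FPKM + 1) = 0.969 over 18 libraries), was at 2.52, 14.8 and 9.42 FPKM in SCZ_NA and 0.150, 0.506 and 0.896 FPKM in YH9_NA (4.06 ± 0.83, adjusted p = 0.00201), and was higher in SCZ at DA and, unless SCZ_CA replicate 1 or YH9_CA replicate 1 or 2 was left out, at CA. The lambda locus CSS016327 was at 4.21, 10.98 and 9.54 FPKM in SCZ_NA and 2.73, 4.69 and 3.04 FPKM in YH9_NA (1.22 ± 0.39, adjusted p = 0.0331), a call lost in 4 of the 18 leave-one-out fits (SCZ_NA replicate 2 or 3, YH9_NA replicate 1 or 3). The GST without a class CSS047836, one of the loci with coordinates, was at 2.35, 2.72 and 3.27 FPKM in SCZ_NA and 0.483, 1.27 and 0.610 FPKM in YH9_NA (1.83 ± 0.48, adjusted p = 0.0115), a call lost without YH9_NA replicate 1 or 3. CSS012156, the chloroplast DHAR3, was higher in SCZ at DA, at 50.8, 39.3 and 38.5 FPKM against 20.8, 19.3 and 18.6 FPKM (1.305 ± 0.36, adjusted p = 0.0127). These groups did not overlap for CSS020680, CSS047836 and CSS012156, and overlapped for CSS016327. CSS041776, described as parC after a tobacco gene, was between 0 and 3.08 FPKM in SCZ, with the highest value in SCZ_CA replicate 2, and between 1.32 and 5.98 FPKM in YH9. It was called at no stage with all libraries, and without SCZ_CA replicate 2 it was called lower in SCZ at NA (−2.71, adjusted p = 0.0374), CA (−2.90, adjusted p = 0.0473) and DA (−2.49, adjusted p = 0.044).

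SCZ_CA replicate 2 also carried the high value of CSS038130/CSS038129, a probable GST, at 64.2 FPKM against 6.76 and 9.11 FPKM in replicates 1 and 3. In YH9 this locus was at 30.6, 28.6 and 23.8 FPKM at NA and 49.5, 68.2 and 52.5 FPKM at CA, and was not called. Without that library SCZ_CA was lower than YH9_CA by 2.56 for CSS038130/CSS038129, by 3.04 for CSS021355 and by 2.66 for CSS026454, and all were then called. CSS005999/CSS005998, the abundant phi locus, was at 41.6, 140.4 and 50.3 FPKM in SCZ_CA, with the same library highest, and between 40.9 and 89.4 FPKM over the YH9 libraries. The reverse held at CSS009733, at 1.51, 0.0599 and 1.07 FPKM in SCZ_CA, and at the lambda loci CSS014013 (23.4, 5.30 and 15.1 FPKM) and CSS036434 (4.48, 0.651 and 1.37 FPKM), where replicate 2 was lowest.

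Read by class, CSS009737 was the called tau member of 3. The tau values had medians of 1.44 in SCZ and 0.44 in YH9 and were positive with all libraries, but without SCZ_CA replicate 2 the SCZ median was 0.20, with CSS041776 at 0.20 and CSS021354 at −0.03. All 4 theta loci had negative values in both cultivars, also without that library, with medians of −1.34 and −1.48, and 2 were called in each. CSS013175, at or under 1.96 FPKM in every library and thus near the floor, was not called in the cold. CSS044929 was not called in the cold either, and its NA and CA groups overlapped in YH9. In the sorting by description, parC (CSS041776) counted as tau, while PARB (CSS000126) stayed without a class. Neither of the 2 loci with a phi name, F9 and F11, was called in SCZ or YH9. CSS005999/CSS005998, described as F9, was at −0.24 ± 0.39 and −0.53 ± 0.39, and CSS025154, described as F11, at −1.60 ± 1.47 and −4.54 ± 1.72. The DHAR locus CSS012156, a chloroplast DHAR3, was at 0.35 ± 0.35 and 0.51 ± 0.35. Of the 24 loci without a class, 3 were called up and 2 down in SCZ, or 2 and 2 without SCZ_CA replicate 2, and 7 up and 2 down in YH9. Of all 44 members, 22 were called in none of the 4 comparisons that involve the CA stage within a cultivar, and 8 in none of the 9 comparisons between groups. The shares of all loci for these 2 counts are not given, so they describe the members alone.

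Other enzymes of glutathione metabolism, taken by description, changed in the cold as well. Of 5 loci for glutathione reduction and peroxide removal, 3 were up-regulated in each cultivar and none down-regulated, with a median log2 fold change of 1.91 in SCZ (all loci −0.06) and 1.55 in YH9 (all loci −0.01). The glutathione peroxidase CSS029771 averaged 132.6 FPKM in SCZ_NA and 458.0 FPKM in SCZ_CA (1.91 ± 0.20), and 99.5 and 394.7 FPKM in YH9 (1.96 ± 0.20). The peroxidase CSS024047 rose by 2.59 ± 0.25 and 2.98 ± 0.25, and the reductase CSS022070, which restores oxidized glutathione, by 3.37 ± 0.45 and 1.55 ± 0.42. None of these 5 loci passed the test of the difference between responses. Values without SCZ_CA replicate 2 are not given for these other enzymes. Of 3 synthesis loci, the glutathione synthetase CSS047264 fell in both cultivars (by 1.95 ± 0.30 and by 1.94 ± 0.30). The other synthetase, CSS034111, rose in YH9 (2.39 ± 0.21) and was at −0.15 ± 0.20 in SCZ. Its difference between the responses, −2.54, passed the test, and it was called lower in SCZ_CA than in YH9_CA (−1.20). Of 4 loci for ascorbate recycling, 2 monodehydroascorbate reductases were called up in SCZ and not in YH9, CSS042783 at 1.13 ± 0.16 and CSS013980 at 1.10 ± 0.16. None of the 4 passed the test of the difference between responses. The dehydroascorbate reductase CSS014924, which uses glutathione and whose description lacks the transferase name, fell by 1.13 ± 0.29 in SCZ and by 2.15 ± 0.30 in YH9.

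Lists further from the transferases were mixed. Of 12 ABC transporters of the C family, 1 was down-regulated in SCZ, and 1 was up- and 4 were down-regulated in YH9. CSS017367/CSS017369 averaged 9.68 FPKM in SCZ_NA and 0.518 FPKM in SCZ_CA, and 23.1 and 1.02 FPKM in YH9 (log2 fold changes −3.99 ± 0.88 and −4.52 ± 0.90). Of 17 glutaredoxins, small enzymes that reduce disulfides with glutathione, 3 were up- and 3 down-regulated in SCZ and 1 each in YH9. Of 9 glyoxalase loci, 1 was up-regulated in SCZ and 1 down-regulated in YH9. The list for glutathione breakdown had 6 loci, and the locus called up in SCZ, CSS030276, is described as a hydroxyacylglutathione hydrolase of the glyoxalase pathway, which both lists held by its name. All numbers called in these lists are to be read beside the 34.1% and 25.8% of all loci called.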

How the data were processed

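Leaf RNA of 6 groups was sequenced in 18 libraries. The deposited table holds FPKM values and estimated counts, both made by the authors. Per their notes, the tools were cutadapt 1.9 for trimming, HISAT2 2.2.1 for mapping and StringTie 2.1.6 for assembly. The methods give an older StringTie and a public tea genome whose cultivar they do not name, while the deposited build field names mouse (mm10). The web address that the paper gives for the genome holds CSS, its short form for var. sinensis. Which program wrote the counts, and whether strand was used, is not given in the sources used here. A count is not 1 sequenced read, so its size overstates precision. The deposited estimated counts, already whole numbers, were compared with edgeR 4.0.16 (R 4.3.3) by quasi-likelihood tests with TMM scaling. The 18 libraries entered a single fit with a mean for each group, and p-values were adjusted by Benjamini-Hochberg across the 29019 loci that reached 1 FPKM in 3 or more libraries. All groups share 1 estimate of the spread. The SE is the log2 fold change divided by the square root of F. DEGs were called at an adjusted p under 0.05 and a 2-fold change, the study's limits (no fold limit for the difference between responses). All 36 value columns were used.

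Values per library are given for the loci with primers, the 5 members of highest mean FPKM, up to 5 largest rises and falls per cold comparison and differences between cultivars at NA and CA (groups not overlapping, mean of at least 10 FPKM in the higher group), and members called in DA vs. NA or in the difference between responses. Other loci were named after their values were seen. The members and lists were chosen with earlier results of these data known. The sources call the replicates biological and do not say which library came from which experiment, so p-values measure the spread between these libraries. Alternatives were no FPKM filter, filterByExpr, median-of-ratios scaling, DESeq2 1.42.0, limma 3.58.1 on log2(FPKM + 1) and log2(FPKM + 0.1), only the groups compared, a replicate block, each library left out and calls made without the fold limit. Counts and FPKM of each member kept their ratio within 0.06 on the log2 scale. RT-qPCR and metabolite values were left out.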

Additional observations from a re-analysis of the deposited data

Results flagged for a closer look

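The response to cold differed between the cultivars at 2 members in a test of the difference itself. For CSS025242, a GST without a class, the log2 fold change in SCZ minus that in YH9 was −3.73 ± 0.83 (SE, edgeR adjusted p = 0.0296), with 3 of 3 CA libraries above the NA libraries in YH9 and 3 of 3 below them in SCZ. For CSS021041, described as a tea GST, it was −1.99 ± 0.48 (edgeR adjusted p = 0.041), with 3 of 3 CA libraries above the NA libraries in YH9 and overlapping groups in SCZ. The call was lost in 6 of 18 leave-one-out fits for CSS025242 and in 13 of 18 for CSS021041.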

How the results depend on the processing

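The named values had 1170 alternative values, of which 1102 kept direction and side of the threshold, 61 lost a call, 4 gained one and 3 turned direction. Those that turned were not called: CSS014728 in SCZ_CA vs. SCZ_NA without SCZ_CA replicate 2 (−0.12, range over the libraries left out −0.12 to 1.01), and CSS047834 in YH9_CA vs. YH9_NA without YH9_CA replicate 2 (−0.18, range −0.18 to 0.46) or YH9_NA replicate 3 (−0.08). With only the groups compared in the fit, 7 members were called in SCZ_CA vs. SCZ_NA in place of 12, 1 in YH9_DA vs. YH9_NA in place of 0, and 0 in the difference between responses in place of 2. Over all 29019 loci the numbers called moved as well, to 5940 in place of 9891, 476 in place of 109 and 278 in place of 747. DESeq2 called 2 members in SCZ_DA vs. SCZ_NA, 2 in YH9_DA vs. YH9_NA and 6 in the difference between responses (CSS020031, CSS021041, CSS025242, CSS038128, CSS038132/CSS038133 and CSS047924/CSS047925). That difference was called at 5 members by limma on log2(FPKM + 1), at 1 with no filter on FPKM, and at 0 with the replicate block. Of all 29019 loci, DESeq2 called 1865 in SCZ_DA vs. SCZ_NA, 435 in YH9_DA vs. YH9_NA and 2575 in the difference between responses. For that difference limma on log2(FPKM + 1) called 1773 and the replicate block 367, where the main fit called 747. With no filter on FPKM, 578 of 41021 loci were called. The causes were not tested.

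With each library left out in turn, the number called was 10 to 14 for SCZ_CA vs. SCZ_NA, 10 to 16 for YH9_CA vs. YH9_NA, 10 to 16 for SCZ_DA vs. SCZ_CA, 7 to 13 for YH9_DA vs. YH9_CA, 0 to 2 for SCZ_DA vs. SCZ_NA, 0 to 1 for YH9_DA vs. YH9_NA, 13 to 19 for SCZ_NA vs. YH9_NA, 19 to 27 for SCZ_CA vs. YH9_CA, 15 to 19 for SCZ_DA vs. YH9_DA and 0 to 6 for the difference between responses, with 6 without SCZ_CA replicate 2 and 0 in 5 fits. Numbers over all loci in these fits are not given, so the ranges describe the members alone.

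The main fit did not pair the samples by replicate number, and 3 libraries per group are too few to settle whether they are paired. Same-numbered deviations within a cultivar correlated at −0.20 to 0.38, over 0.1 in 5 of 18 pairs, and across cultivars at −0.07 to 0.18, over 0.1 in 2 of 9. The replicate block, added after seeing the data for the comparisons between cultivars, left the other counts of calls within 1.5 times. On log2(FPKM + 1) the median of all loci moved from −0.06 to −0.14 in SCZ_CA vs. SCZ_NA and from 0.02 to −0.17 in SCZ_CA vs. YH9_CA. The 3 libraries of a group and few counts at the loci near absent from a cultivar limit what can be called.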

Other observations

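CSS025154, described as the phi GST F11, and CSS027607, described as a GST of Vitis amurensis, varied together more than with the stages. CSS027607 was at 0.852, 27.1 and 2.13 FPKM in SCZ_NA, 1.88, 2.56 and 5.42 FPKM in SCZ_CA, 25.2, 2.72 and 1.87 FPKM in SCZ_DA, 0.634, 5.33 and 44.6 FPKM in YH9_NA, 1.79, 0.353 and 1.01 FPKM in YH9_CA and 102.6, 16.4 and 23.8 FPKM in YH9_DA. CSS025154 was the member most like it (Pearson r of log2(FPKM + 1) = 0.982 over 18 libraries) and was high in the same libraries, with 17.03 FPKM in SCZ_NA replicate 2, 16.0 FPKM in SCZ_DA replicate 1, 19.1 FPKM in YH9_NA replicate 3 and 41.3 FPKM in YH9_DA replicate 1. YH9_DA vs. YH9_CA called both up, by 5.32 ± 1.62 (edgeR adjusted p = 0.0217) and 5.89 ± 1.81 (edgeR adjusted p = 0.0226). Without YH9_DA replicate 1 the values were 4.12 (adjusted p = 0.0743) and 4.67 (adjusted p = 0.0735), and both calls were also lost without YH9_CA replicate 2 or 3, and that of CSS025154 without YH9_CA replicate 1. Both loci were singled out after their values were seen.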
